A study of Mus musculus with 14 samples.

Results

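Of the 153207 H3K4me3 summits in mouse prefrontal cortex, 10822 lie deep inside genes. They were chosen by position alone, as summits on chromosomes 1 to 19 inside a protein-coding RefSeq gene and more than 10 kb from every gene boundary. They fall in 4857 of the 48695 called regions and in 1836 host genes, and 119 of them lie inside 2 or more coding genes, where the shortest gene names the summit. All mice were male C57BL/6J adults, 10 to 12 weeks of age. The signal was compared between 3 control libraries from mice kept in divided cages with no aggressor, 5 libraries after 10 days of social defeat (SDS10) and 5 after 30 days (SDS30). Defeat was a short daily attack by an unfamiliar CD1 mouse, followed by housing next to a CD1 aggressor behind a perforated barrier. Dissection followed 24 hours after the final defeat, chromatin was cut to mononucleosomes with micrococcal nuclease, and all libraries carry the same batch date. The labels do not say that each library is 1 animal, so p-values measure only the spread between libraries, part of which may be technical.

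H3K4me3 is laid down around transcription starts, where CpG-rich DNA recruits the methyltransferase complexes, and it is strongest on the nucleosomes just downstream of an active start. Long neuronal genes often carry starts inside the gene body that give shorter transcripts and proteins with another N-terminus. Weak H3K4me3 is also found at active enhancers, where H3K4me1 prevails. A summit deep in a gene can therefore mark an internal promoter or an enhancer, and H3K4me3 alone does not tell them apart. Deep and internal are meant here by distance to RefSeq boundaries only. Such a start can also be the main start of its gene, which was not looked up.

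Upstream sequences of internal starts are shown first, because their CpG content went with the presence of the mark. Each is the 250 bases before a RefSeq start (GRCm38.p6, the primary assembly of mm10), read 5′ to 3′ on the strand of the gene, with CG dinucleotides in capitals. The first 3 belong to the strongest deep summits of the series. The others are pairs of starts in 1 host gene, of which 1 had a summit within 1 kb and the other had none.
Tnrc6a, marked, chr7:123123635-123123884, plus strand: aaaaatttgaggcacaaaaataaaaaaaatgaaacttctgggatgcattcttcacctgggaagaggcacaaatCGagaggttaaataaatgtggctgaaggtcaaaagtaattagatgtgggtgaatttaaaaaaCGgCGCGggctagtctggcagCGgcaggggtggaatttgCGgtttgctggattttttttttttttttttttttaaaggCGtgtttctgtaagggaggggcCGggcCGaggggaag
Zfp445, marked, chr9:122866007-122866256, minus strand: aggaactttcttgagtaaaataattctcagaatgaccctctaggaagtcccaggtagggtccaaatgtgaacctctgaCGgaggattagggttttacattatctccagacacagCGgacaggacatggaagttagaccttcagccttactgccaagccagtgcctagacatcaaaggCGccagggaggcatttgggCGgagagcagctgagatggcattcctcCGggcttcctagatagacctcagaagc
Trp53bp1, marked, chr2:121271408-121271657, minus strand: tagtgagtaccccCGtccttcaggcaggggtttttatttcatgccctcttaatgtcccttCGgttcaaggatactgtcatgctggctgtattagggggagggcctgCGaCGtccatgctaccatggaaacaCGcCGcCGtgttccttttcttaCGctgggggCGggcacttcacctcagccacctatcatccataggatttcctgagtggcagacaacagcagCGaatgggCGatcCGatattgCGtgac
Arhgef7, marked, chr8:11758115-11758364, plus strand: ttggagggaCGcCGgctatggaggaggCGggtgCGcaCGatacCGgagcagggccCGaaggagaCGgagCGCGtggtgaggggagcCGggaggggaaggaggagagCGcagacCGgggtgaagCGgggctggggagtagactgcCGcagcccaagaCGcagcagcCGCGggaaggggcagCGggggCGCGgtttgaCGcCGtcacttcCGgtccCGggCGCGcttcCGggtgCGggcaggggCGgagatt
Arhgef7, unmarked, chr8:11779034-11779283, plus strand: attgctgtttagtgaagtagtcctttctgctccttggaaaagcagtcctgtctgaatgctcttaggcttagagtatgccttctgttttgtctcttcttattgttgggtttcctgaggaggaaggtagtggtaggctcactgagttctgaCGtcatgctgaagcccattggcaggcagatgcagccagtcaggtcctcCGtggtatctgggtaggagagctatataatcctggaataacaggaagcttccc
Rmdn2, marked, chr17:79614967-79615216, plus strand: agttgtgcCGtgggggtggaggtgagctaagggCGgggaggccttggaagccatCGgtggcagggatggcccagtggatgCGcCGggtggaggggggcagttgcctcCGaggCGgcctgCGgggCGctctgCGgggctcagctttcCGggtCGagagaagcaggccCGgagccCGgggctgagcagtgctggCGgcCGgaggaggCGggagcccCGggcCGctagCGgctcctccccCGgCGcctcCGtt
Rmdn2, unmarked, chr17:79626425-79626674, plus strand: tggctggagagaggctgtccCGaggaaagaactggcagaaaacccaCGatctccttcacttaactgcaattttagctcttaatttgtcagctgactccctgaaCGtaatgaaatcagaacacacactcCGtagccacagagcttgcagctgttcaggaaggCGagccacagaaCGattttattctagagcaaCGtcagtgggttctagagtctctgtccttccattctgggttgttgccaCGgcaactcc
The marked Arhgef7 sequence holds 30 CG dinucleotides and the unmarked one 2. In Rmdn2 the numbers are 23 and 8. The upstream sequences at Tnrc6a, Zfp445 and Trp53bp1 hold 9, 5 and 13, fewer than the marked starts of these pairs although their summits were stronger. Arhgef7 encodes a guanine nucleotide exchange factor for Rac and Cdc42 (beta-PIX), and its marked start had a strongest summit of 129.9 ± 25.6 normalised reads in control (SD, n = 3). Rmdn2 encodes a regulator of microtubule dynamics, and its marked start reached 125.2 ± 9.55 (SD, n = 3).

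RefSeq placed 1120 starts of 842 genes deep inside a coding gene, leaving chromosome 18 aside, for which no starts were looked up. Of these, 538 (48.0%) had a summit within 1 kb, against 49.9% of all 31396 starts. The median count of CG dinucleotides in the 300 bases around the start was 12 at marked deep starts and 4 at unmarked ones, and the GC content was 57.3% against 47.3%. Of the 230 deep starts with 0 to 2 CG, 24 (10.4%) were marked, and their median level was 24.0 normalised reads. All 64 deep starts with 18 to 23 CG and all 136 with 24 or more were marked, at median levels of 101.9 and 90.6. Starts with 6 to 11 CG lay between, with 53.2% marked and a median level of 46.1. In each of the 6 bins of CG content, the median level of marked deep starts was below that of all marked starts, for example 78.1 against 97.4 at 12 to 17 CG. These are shares over starts in 1 set of libraries and carry no test.

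**Figure D1:**
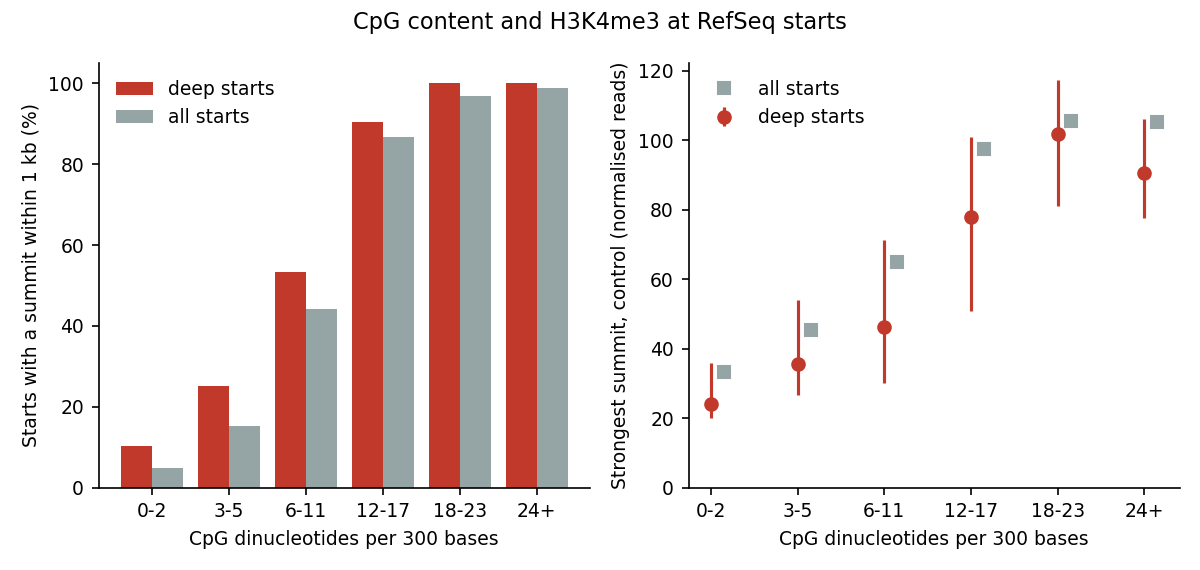
Share of RefSeq starts with a summit within 1 kb (left, %) and median level of their strongest summit in control (right, normalised reads), by the number of CpG dinucleotides in 300 bases; red, deep starts with quartiles as bars; grey, all starts. Marked deep starts go from 10.4% in the lowest bin to 100% in the bins from 18 CpG.

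Short motifs were counted in the same 300 bases on both strands. The GC box GGGCGG, bound by Sp and KLF factors, was present at 74.0% of the 223 deep starts whose strongest summit reached 80 or more, at 51.5% of all marked deep starts, at 10.1% of unmarked ones and at 36.0% of all RefSeq starts. GGGCGG contains a CG, so its share is not independent of CpG content. The TATA box letters TATAAA had the opposite order, with 4.93% at the strong deep starts, 6.51% at marked, 20.6% at unmarked and 13.6% at all starts. AP-1 sites, written TGANTCA, were found at 6.32% of marked and 10.8% of unmarked deep starts, against 7.84% of all starts. A match is only a run of letters and does not show that a factor is bound.

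Around the starts, deep summits were densest and strongest just downstream. Of the 2634 deep summits within 1 kb of a RefSeq start, 2630 lay by a start of their own host gene. Of the 2634, 873 were upstream of the start and 1761 at or downstream of it. The fullest 100 bp bin ran from 100 to 199 bp downstream, with 284 summits and a median control level of 68.0 normalised reads. The bin from 200 to 101 bp upstream held 191 summits at 44.7, and the bin 900 to 999 bp downstream held 131 at 34.6. Neighbouring deep summits of a region lay 180 bp apart in the median, against 179 bp for all summits.

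**Figure D2:**
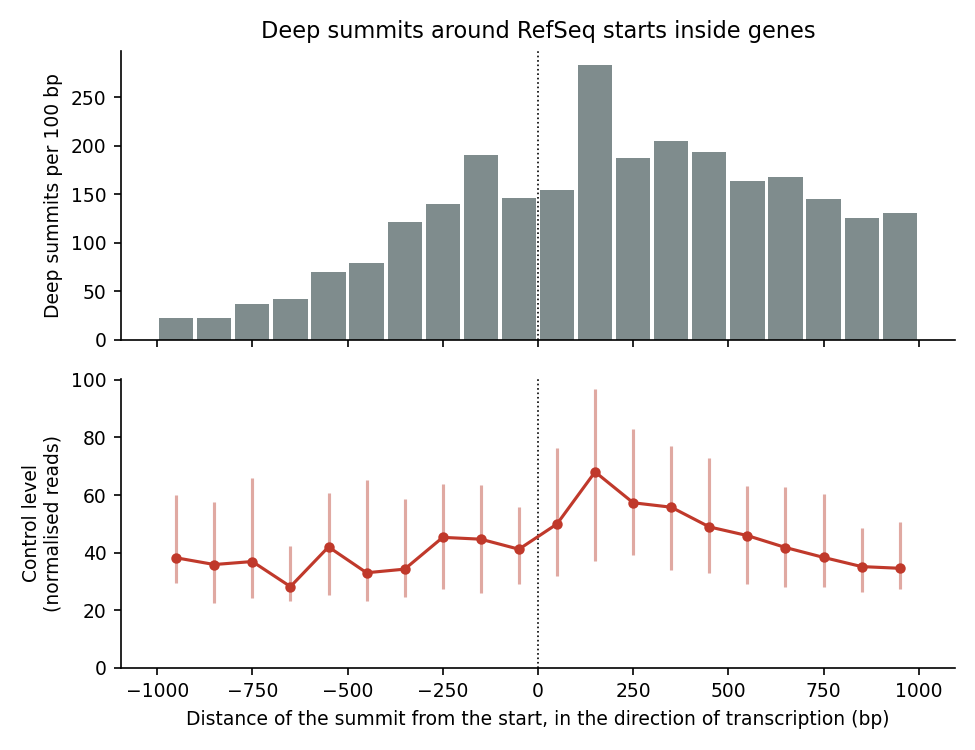
Number of deep summits per 100 bp (top) and their median control level with quartiles (bottom, normalised reads) by distance from the nearest RefSeq start, positive in the direction of transcription. The fullest bin, 100 to 199 bp downstream, holds 284 summits at a median of 68.0.

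Deep regions with a RefSeq start nearby were a minority, with stronger summits and more of them (3 against 1 in the median) than the other deep regions. Regions of more summits have more chances to lie near a start and to hold a strong summit. Part of this contrast is therefore built in. Off chromosome 18, 765 of 4619 deep regions (16.6%) had a start within 1 kb. The strongest summit of these regions had a median control level of 45.9 normalised reads over 765 regions, against 22.6 over the 3854 regions without a start and 55.2 over the 29704 regions within 2 kb of a gene boundary. A level of 80 or more was reached by 202 (26.4%) of the regions with a start and 109 (2.83%) of those without. The share of regions with a start was 7.87% below a level of 20, 27.9% from 40 to 60 and 71.9% at 100 and above. Most deep regions were narrow: 61.1% held 1 summit, against 32.2% of the regions within 2 kb of a boundary, and the widest held 21.

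**Figure D3:**
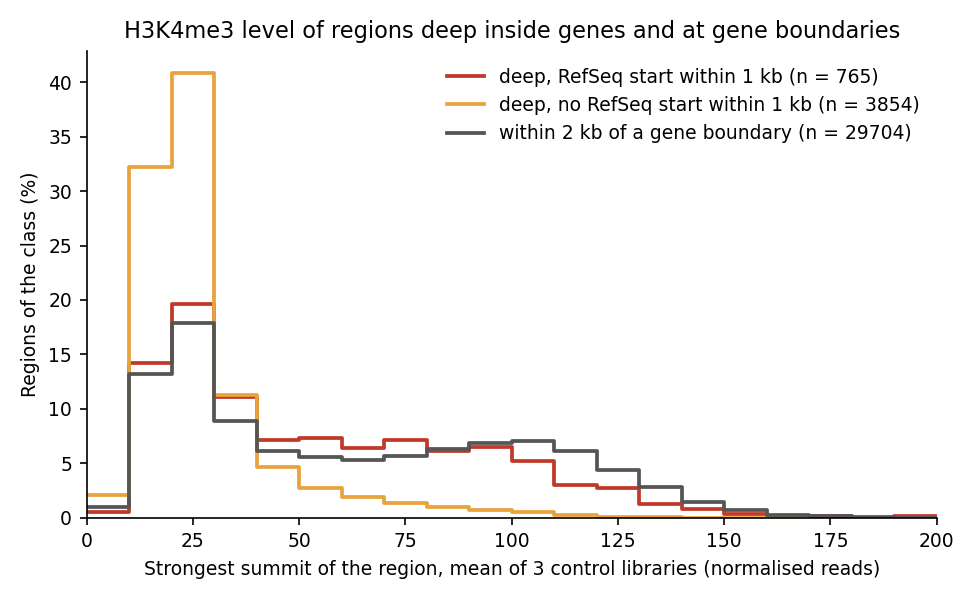
Share of regions (%) by the control level of their strongest summit (mean of 3 control libraries, normalised reads, bins of 10), for deep regions with and without a RefSeq start within 1 kb and for regions within 2 kb of a gene boundary. Medians are 45.9, 22.6 and 55.2.

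As a class, deep summits were weaker than summits at gene boundaries in every control library. The median per library was 29.3 ± 0.571 (SD, n = 3) for deep summits, 48.3 ± 0.274 for the 109066 summits within 2 kb of a boundary and 25.5 ± 1.06 for the 4789 summits outside coding genes and beyond 10 kb. The spread within the class was wide, with 5% of deep summits below 15.2 and 5% above 85.3. The 3 summits nearest the limit of 10 kb on each side varied widely in level, and so few cannot show how the level changes with distance. Just inside it lay summits of Arhgef4, Gm1043 and Nrbp1 at 25.4 ± 20.4, 43.6 ± 9.71 and 109.6 ± 13.5 (SD, n = 3), and just outside it those of Unc5a, Foxp4 and Ptprd at 57.2 ± 10.3, 24.5 ± 10.2 and 20.9 ± 11.02.

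Deep regions were most frequent just upstream of the middle of the host gene. For the 3780 regions whose host has a known strand, the host was divided into 4 equal parts from 5′ to 3′. These held 20.1%, 34.3%, 28.3% and 17.4% of the regions, and 22.4%, 27.9%, 27.8% and 21.9% of the bases more than 10 kb from every gene boundary. The bases are pooled over 1431 hosts and so weighted by host length, unlike the regions, which limits the comparison. Of the 764 such regions with a RefSeq start, part 2 held 41.4% and part 4 11.3%. The median distance from the 5′ boundary was 62.6 kb.

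Host genes were long. Their median length was 116 kb, against 49.3 kb for the 9575 coding genes above 20 kb, the least length that can hold a member. Of those genes 19.2% were hosts, and of the 945 genes above 200 kb 536 (56.7%) were. Many hosts (817) held 1 region, while 261 held 5 or more and together 2058 regions. The hosts with most regions were Tcf4, a basic helix-loop-helix factor of neurons, with 47, the cAMP phosphodiesterase Pde4d with 25, the nuclear factor I gene Nfix and the neuron navigator Nav2 with 19 each, Chd9, a chromatin remodeller, and Gse1 with 18 each, and Trak1, an adaptor for mitochondrial transport, and the postsynaptic scaffold gene Dlgap1 with 17 each. Their strongest deep summits ranged from 42.6 ± 10.5 in Gse1 to 128.4 ± 12.9 in Nav2 in control (SD, n = 3).

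In a subset of hosts a deep summit was stronger than those at the gene's boundaries. Of the 1491 hosts with a summit within 2 kb of their own boundaries, 226 (15.2%) had a stronger deep summit, while the medians over these hosts were 29.9 for the strongest deep and 93.9 for the strongest boundary summit. Pcca, a subunit of propionyl-CoA carboxylase, had 138 ± 13.8 deep inside and 36.7 ± 17.7 at a boundary (SD, n = 3). Nr3c1, the glucocorticoid receptor, is known for several alternative first exons and had 102.6 ± 3.88 deep inside and 27.0 ± 9.49 at a boundary. Another 345 hosts had no summit at their own boundaries, and 84 of them held a deep summit of 80 or more, among them Rps6ka2, Atad1, Otub2, Arhgef18, Hdac4, Arntl and Pde4d. Whether these deep summits lie at the main start of their gene was not tested.

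The 8 strongest members were all above 112.9, the 95th percentile of summits within 2 kb of a boundary. Tnrc6a, a scaffold of microRNA silencing, had the highest summit (chr7:123123996-123123997, 111 bp downstream of the internal start printed above). Its normalised reads were 203, 162 and 206 in the control libraries, 199, 263, 219, 213 and 223 in SDS10 and 179, 186, 236, 170.2 and 204 in SDS30, and the groups overlapped. Zfp445, a zinc finger protein that protects imprinted methylation, followed (chr9:122865855-122865856, 151 bp downstream of its start) with 191, 192 and 139 in the control libraries, 172, 172, 161, 181 and 167 in SDS10 and 148, 170.3, 179, 175 and 175 in SDS30. Here too the groups overlapped, with the lowest value in a control library. Trp53bp1, a DNA double-strand break factor, had 159, 158 and 162 in the control libraries, 174, 195, 176, 195 and 156 in SDS10 and 174, 139, 212, 142 and 157 in SDS30 at chr2:121271280-121271281, again with overlap. The control means of the other 5 were 155 ± 12.8 for Zfp638, 154 ± 28.0 for the retinol dehydrogenase Rdh13, 153 ± 15.9 for the ribosomal S6 kinase Rps6ka2, 149 ± 18.1 for Atad1, an ATPase that removes AMPA receptors from the synapse, and 149 ± 18.02 for Abraxas1 of the BRCA1-A complex (SD, n = 3). Of the 8, Rdh13 alone had no RefSeq start within 1 kb.

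The tissue label was checked against marker genes with a summit within 2 kb of their boundaries. All 7 excitatory neuron markers had one, at 31.9 to 52.5 normalised reads in control, as did 5 of 6 inhibitory, 4 of 5 astrocyte, 5 of 6 oligodendrocyte and 4 of 5 endothelial markers. Of 5 microglia markers 2 had one (17.4 to 18.1), and of 6 markers of other tissues 1 had one (Apoa1, 67.2). Reads on summits ranged from 4512817 to 10887911 per library. In bulk tissue, fewer cells of a type and less mark per cell cannot be told apart, which holds for every difference below.

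Deep summits took a similar part of the reads in all groups. Their share of the reads on all summits was 5.21, 5.19 and 5.24% in the control libraries (mean 5.21 ± 0.0286, SD, n = 3). In SDS10 it was 5.08, 5.07, 5.26, 5.35 and 5.30% (5.21 ± 0.127, n = 5), and in SDS30 5.31, 5.61, 5.21, 5.38 and 5.37% (5.38 ± 0.148, n = 5). SDS10 lay on both sides of control, and 4 of 5 SDS30 libraries lay above the highest control. Taken among the reads on summits beyond 2 kb only, the mean share was similar in all groups. The median deep summit was 29.3 ± 0.571 in control, 29.7 ± 1.73 in SDS10 and 31.4 ± 1.86 in SDS30. Its highest values, 32.2 and 34.4, came from the shallowest libraries of SDS10 and SDS30, with 4512817 and 4750679 reads, and the part of depth in this was not tested.

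**Figure D4:**
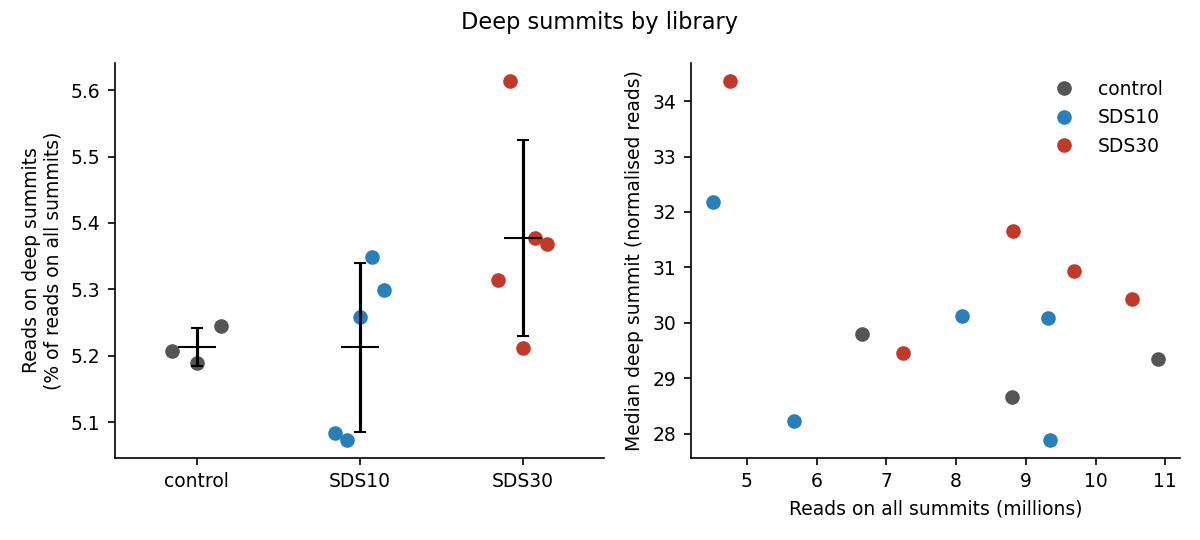
Left, reads on deep summits as a share of reads on all summits (%, axis not from 0), 1 point per library with mean and SD. Right, median deep summit (normalised reads) against the reads on all summits, where the 2 shallowest libraries have the highest medians, 32.2 and 34.4.

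No deep summit passed the test in any comparison. Of the 10757 members kept by the filter on low reads (65 were left out), 0 had an adjusted p under 0.05 by limma in SDS10 against control, SDS30 against control or SDS30 against SDS10, as was so for 0% of all 152270 tested summits in each. The smallest adjusted p of a member by limma was 1.00, 1.00 and 0.963. Summing each region gave 0 of 4800 deep regions in each comparison (0% of all 48174 regions). At an unadjusted p under 0.05, 104 deep regions (2.17%) were higher and 57 (1.19%) lower in SDS10 against control, where 1.88% and 1.26% of all regions were. For SDS30 against control the numbers were 100 (2.08%) and 27 (0.562%), where all regions had 1.43% and 1.01%. For SDS30 against SDS10 they were 159 (3.31%) and 44 (0.917%), where all regions had 2.52% and 2.09%.

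The precision set what could be seen: the 95% interval of a member's log2 fold change reached in the median 0.63 to either side in both comparisons with control and 0.54 between the defeat groups. That interval lay inside -1 to 1 for 74.3%, 76.2% and 85.4% of members, so changes of 2-fold were not within the interval there. The 3 comparisons share libraries, and their values are given side by side only.

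At an unadjusted p under 0.05, more members were higher than lower in each comparison. In SDS10 against control 231 were higher (2.15%) and 124 lower (1.15%), near the 1.99% and 1.22% of all tested summits. In SDS30 against control 222 were higher (2.06%) and 109 lower (1.01%), where all summits had 1.44% and 1.97%. Between the defeat groups, SDS30 against SDS10, 282 were higher (2.62%) and 183 lower (1.70%), where all summits had 2.01% and 3.11%. The median log2 fold change of members was -0.00, 0.05 and 0.04 in the 3 comparisons, beside 0.00, 0.00 and -0.00 over all tested summits.

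These shares moved with the scaling and with single libraries, for all summits as for members. With loess offsets, which remove trends of the ratio with the level, SDS30 against control had 170 members higher (1.58%) and 104 lower (0.967%), where all summits had 1.49% each way. Against SDS10 the loess counts were 187 (1.74%) and 196 (1.82%), where all summits had 1.85% and 2.21%, and the medians of both SDS30 comparisons were 0.02 and 0.00. Leaving out control replicate 1 turned the lean of all summits in SDS30 against control to 2.81% higher and 2.28% lower, with 400 members higher (3.72%) and 162 lower (1.51%). Without control replicate 2 all summits had 1.48% and 1.24% and members 2.20% and 0.688%, and without control replicate 3 all had 1.12% each way and members 1.62% and 0.483%. In SDS10 against control without control replicate 1, members had 3.46% and 1.36% and all summits 3.12% and 1.48%. SDS30 replicate 2 is the shallowest of its group. Without it members had 1.37% and 0.707% against control (all 1.07% and 1.15%), and 1.60% and 1.26% against SDS10 (all 1.38% and 1.89%). Without SDS30 replicate 5 members had 3.03% and 2.07% against control (all 2.501% and 3.17%), and without SDS30 replicate 1 they had 4.24% and 2.54% against SDS10 (all 2.93% and 3.97%).

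Members whose groups did not overlap were counted as well. In SDS10 every library was above the highest control at 187 members (1.59% of all summits) and below the lowest at 135 (1.4%). For SDS30 against control the numbers were 154 (1.23%) and 102 (1.74%), and for SDS30 against SDS10 48 (0.334%) and 25 (0.387%). The members' own shares were 1.74% and 1.26%, 1.43% and 0.948%, and 0.446% and 0.232%.

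The members were also counted by the presence of a RefSeq start. Of 7022 tested members in regions without a start, 149 (2.12%) were higher and 38 (0.541%) lower in SDS30 against control, beside 1.44% and 1.97% of all summits. Against SDS10 220 (3.13%) were higher and 68 (0.968%) lower, beside 2.01% and 3.11%. Of 3192 members in regions with a start, 53 (1.66%) were higher and 67 (2.10%) lower against control, and 46 (1.44%) and 101 (3.16%) against SDS10. In SDS10 against control the members without a start had 121 (1.72%) and 94 (1.34%) and those with one 88 (2.76%) and 28 (0.877%), beside 1.99% and 1.22% of all. The 2 classes also differ in level, with medians of 26.0 ± 0.736 without and 42.3 ± 0.335 with a start in control (SD, n = 3).

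The direction of SDS30 against control in the class with a start was not stable, and the shares of all summits moved too. It was 119 higher (3.73%) and 82 lower (2.57%) without control replicate 1, where all summits had 2.81% and 2.28%. Without control replicate 2 it was 68 and 36 (2.13% and 1.13%, all 1.48% and 1.24%). Without control replicate 3 it was 39 and 33 (1.22% and 1.03%, all 1.12% each way). Without SDS30 replicate 2 it was 41 and 37 (1.28% and 1.16%, all 1.07% and 1.15%). With edgeR it was 55 and 53 (1.72% and 1.66%, all 1.45% and 1.79%). In the class without a start more were higher than lower under each of these settings, from 88 and 36 (1.25% and 0.513%) without SDS30 replicate 2 to 244 and 74 (3.47% and 1.05%) without control replicate 1, where all summits had 1.07% and 1.15%, and 2.81% and 2.28%. It had 116 and 16 without control replicate 3 and 201 and 91 without SDS30 replicate 5. With loess offsets it had 99 (1.41%) and 49 (0.698%) against control, beside 1.49% each way, and 129 (1.84%) and 99 (1.41%) against SDS10, beside 1.85% and 2.21%. Against SDS10 it had 131 and 71 without SDS30 replicate 2 and 356 and 126 without SDS30 replicate 1, where all summits had 1.38% and 1.89%, and 2.93% and 3.97%. The difference between the classes was not tested.

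Kcnj3 and Lrrc4c had the smallest unadjusted p-values of higher members in both comparisons with control, leaving unnamed gene models aside. Kcnj3 encodes a subunit of the G protein-gated potassium channel that lowers neuronal excitability. The gene held 19 deep summits, the strongest at 61.3 ± 17.6 in control (SD, n = 3), and only a weak summit is described here. Its single-summit region (chr2:55438717-55438718, 26.9 kb from the nearest boundary, no RefSeq start within 1 kb) had normalised reads of 12.6, 6.08 and 5.73 in the control libraries, 23.0, 31.1, 31.1, 22.0 and 17.1 in SDS10 and 38.4, 29.7, 17.9, 18.8 and 19.6 in SDS30. All 10 defeat libraries were above the 3 control libraries, which both comparisons share. The log2 fold change (limma, on log2 of value + 1, ± SE) was 1.55 ± 0.36 in SDS10 and 1.52 ± 0.36 in SDS30, with adjusted p 1.00 by limma in both, and these are weak summits even at their highest.

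Lrrc4c encodes netrin-G ligand 1, a postsynaptic adhesion protein. Its summit at chr2:97472193-97472194 had 6.99, 12.2 and 13.8 in the control libraries, 27.1, 32.5, 39.5, 25.4 and 19.5 in SDS10 and 41.5, 26.6, 21.0, 21.4 and 25.4 in SDS30. Again all 10 defeat libraries were above control. The log2 fold changes were 1.33 ± 0.33 and 1.24 ± 0.33, with adjusted p 1.00 by limma in both.

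Other named members higher in SDS10 were in Jarid2, Tnrc6b and Zfp385b. Jarid2, a cofactor of Polycomb repressive complex 2, had 8.38, 8.69 and 9.17 in the control libraries, 14.8, 28.2, 25.4, 22.0 and 25.2 in SDS10 and 21.1, 14.1, 13.7, 11.1 and 15.2 in SDS30 (chr13:44841219-44841220). Both defeat groups were above control without overlap, and SDS10 differed by 1.28 ± 0.36. Tnrc6b, a relative of Tnrc6a, had 15.7 ± 7.15 in control, 33.2 ± 2.31 in SDS10 and 20.8 ± 4.72 in SDS30 (SD, n = 3, 5 and 5). The zinc finger gene Zfp385b had 25.2 ± 10.7, 48.6 ± 10.3 and 35.3 ± 10.1, 233 bp from a RefSeq start. In both genes SDS10 was above control without overlap and SDS30 overlapped control.

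The members described here as lower in SDS10 had control means between 28.1 and 41.6 normalised reads. The centrosomal gene Cep85 had 36.8 ± 1.48 in control, 18.4 ± 12.2 in SDS10 and 25.2 ± 4.68 in SDS30, with both defeat groups below control. Unc5b, a netrin receptor, had 28.1 ± 3.24, 13.2 ± 7.88 and 19.9 ± 4.24, and its groups overlapped. The calcium-activated chloride channel Ano1 had 41.6 ± 3.71, 21.0 ± 6.60 and 23.7 ± 11.6, with both defeat groups below control. Sema7a, a membrane-anchored semaphorin, had 38.4, 24.3 and 33.2 in the control libraries, 20.51, 12.7, 12.2, 18.6 and 17.1 in SDS10 and 24.3, 32.8, 34.7, 22.2 and 53.6 in SDS30. SDS10 was below both other groups there, by -0.94 ± 0.32 against control, and SDS30 was above SDS10 by 0.96 ± 0.27.

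In SDS30 against control, the named higher members were weak summits, at control means of 8.13 to 22.0, and the named lower ones strong, at 87.2 to 109.8. A second Tnrc6a summit (chr7:123123556-123123557, at -329 bp from the start and weak beside the strongest one) had 17.5, 12.2 and 18.3 in the control libraries, 22.1, 22.6, 18.8, 25.4 and 41.5 in SDS10 and 29.8, 48.4, 42.1, 29.9 and 25.4 in SDS30. Both defeat groups were above control, by 0.64 ± 0.31 and 1.07 ± 0.31. Rapgef2, an exchange factor for Rap, had 22.0 ± 6.34 in control, 38.3 ± 13.4 in SDS10 and 41.8 ± 3.49 in SDS30, with both defeat groups above control. The extracellular matrix gene Svep1 had 13.8 ± 5.77, 28.3 ± 6.60 and 31.2 ± 10.7, where SDS30 overlapped control.

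Runx2, a transcription factor with described alternative promoters, led the lower members of SDS30. Its summit (chr17:44734685-44734686, in a region of 15 summits with no RefSeq start within 1 kb) had 94.3, 125 and 110.0 in the control libraries, 112, 88.9, 80.01, 62.7 and 69.9 in SDS10 and 63.4, 56.2, 51.5, 69.3 and 85.5 in SDS30. SDS30 was below control without overlap, by -0.76 ± 0.19, while SDS10 overlapped control. Arntl, the circadian clock factor BMAL1, has no summit at its own boundaries and 13 deep ones, of which 1 lay 183 bp downstream of an internal start (chr7:113207694-113207695). That summit had 83.8, 109 and 101 in the control libraries, 90.2, 113, 76.2, 88.1 and 89.4 in SDS10 and 67.3, 51.5, 65.2, 59.9 and 70.3 in SDS30, so that SDS30 was below both other groups. The log2 fold change was -0.63 ± 0.17 against control and -0.53 ± 0.15 against SDS10, with adjusted p 1.00 and 0.963 by limma. The strongest Arntl summit, 409 bp downstream of the start, had 129.6 ± 26.9 in control, 142 ± 34.2 in SDS10 and 133 ± 12.1 in SDS30, with overlap. Zscan18 had 92.7 ± 12.7, 82.2 ± 17.1 and 57.0 ± 16.9, and Asb8 had 91.2 ± 11.3, 81.0 ± 15.3 and 59.8 ± 10.9, both within 1 kb of a start and both lower in SDS30 than in control without overlap.

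Cdh13, a cadherin held to the membrane by a lipid anchor, had summits that went opposite ways. A summit of its 7-summit region (chr8:118284353-118284354) had 72.7, 93.8 and 95.1 in the control libraries, 88.6, 98.8, 69.7, 94.9 and 85.4 in SDS10 and 72.0, 40.6, 33.7, 41.9 and 86.2 in SDS30. The SDS30 libraries were split, with 3 low and 2 within the other groups. A single-summit region elsewhere in the gene (chr8:118437816-118437817) had 17.5, 9.56 and 19.5 in the control libraries, 15.6, 5.65, 16.002, 5.08 and 13.8 in SDS10 and 19.6, 35.9, 22.1, 33.4 and 19.6 in SDS30, with SDS30 above both other groups. SDS30 differed from SDS10 by -0.75 ± 0.20 and 1.24 ± 0.35. The strongest Cdh13 summit, in the same region as the first, had 89.5 ± 21.0, 71.8 ± 30.8 and 75.1 ± 28.1, with overlap.

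Between the defeat groups Hdac4 had the smallest unadjusted p of the members in named genes. Hdac4 is a class IIa histone deacetylase that shuttles between nucleus and cytoplasm with neuronal activity. The summit 202 bp downstream of its internal start (chr1:92180139-92180140) had 94.3, 68.6 and 71.1 in the control libraries, 82.8, 103, 73.4, 83.0 and 100.0 in SDS10 and 61.9, 46.9, 53.6, 60.7 and 58.7 in SDS30. SDS30 was below both other groups, by -0.64 ± 0.16 against SDS10 (adjusted p 0.963 by limma). The stronger Hdac4 summit, at -418 bp from that start, had 132 ± 16.4, 136 ± 25.5 and 142 ± 9.40, with overlap. Larp1, which binds messenger RNAs of the translation machinery, had 53.9 ± 13.1 in SDS10 and 30.3 ± 10.1 in SDS30, and the membrane skeleton gene Epb41l3 had 90.6 ± 15.6 and 61.3 ± 13.6, both with overlap. Higher in SDS30 were Ergic1 (15.6 ± 6.60 and 31.2 ± 8.95), Uaca (29.5 ± 4.48 and 50.5 ± 14.4) and Smad7, an inhibitor of TGF-beta signalling (23.4 ± 4.80 and 40.9 ± 9.91), the last without overlap.

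**Figure D5:**
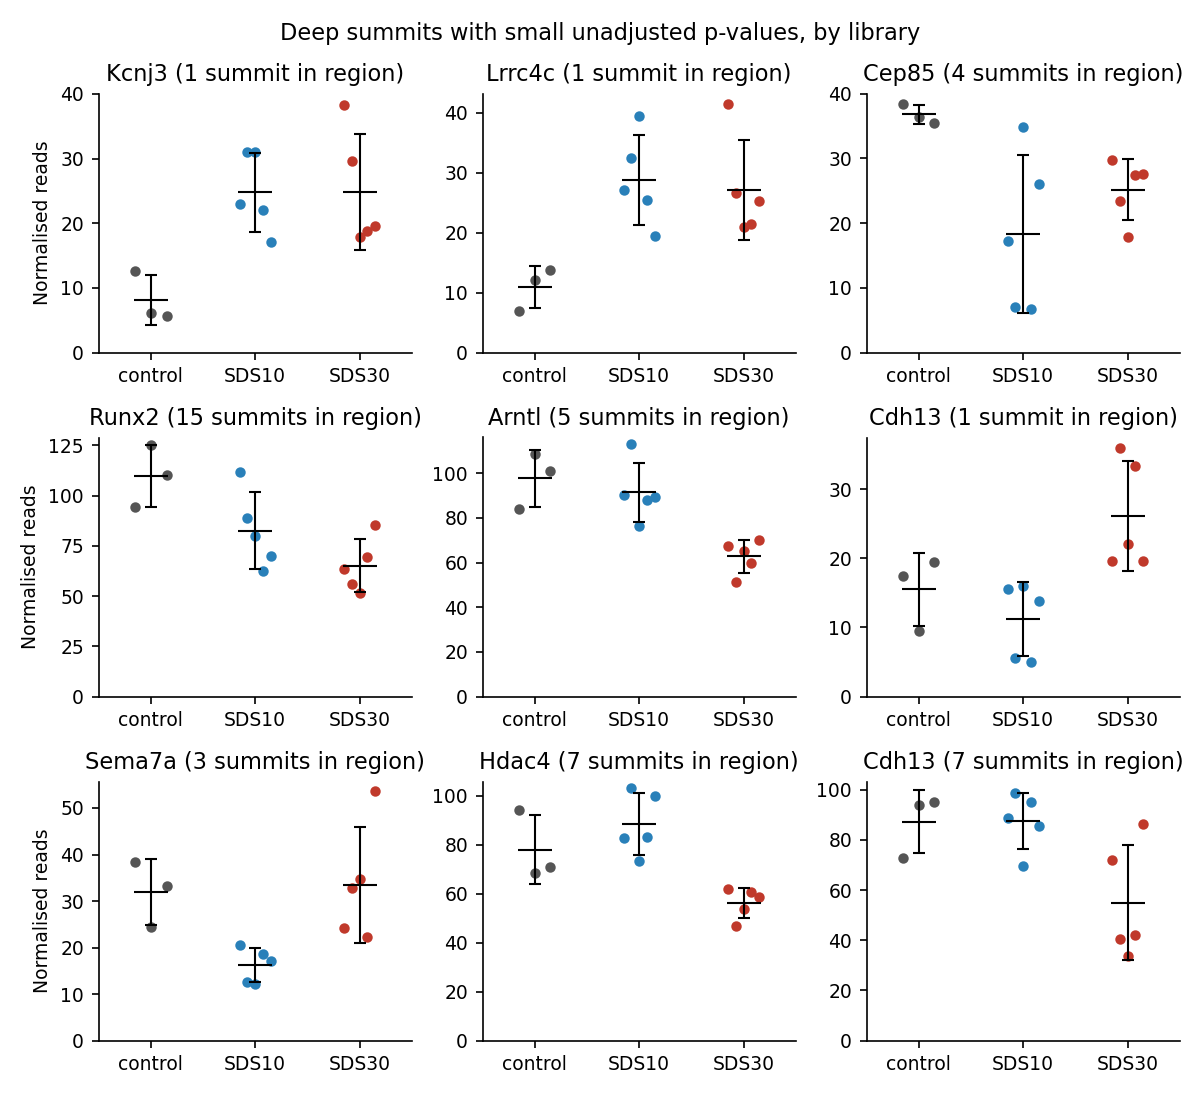
Normalised reads per library (points) with mean and SD (bars) for deep summits with small unadjusted p-values in each comparison and direction; all axes start at 0. At Kcnj3 and Lrrc4c all 10 defeat libraries are above control, and at the plotted Arntl and Hdac4 summits all 5 SDS30 libraries are below both other groups.

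Deep summits of synaptic adhesion and axon guidance genes leaned upwards in SDS10. Of the 55 genes listed, 38 were hosts, with 297 tested members. Of these 21 (7.07%) were higher and 0 lower at an unadjusted p under 0.05, beside 1.99% and 1.22% of all summits, and the median log2 fold change was 0.14 beside 0.00. The 21 lie in 16 regions of 9 genes: Lrrc4c held 6, the limbic adhesion gene Lsamp 5, the Slit receptor Robo2 3 and the latrophilin Adgrl2 2, and Adgrl3, Cntnap2, Tenm3, Nlgn1 and Nrxn3 held 1 each. Neighbouring summits share fragments, so the 21 are not independent. The Lsamp summit with the smallest p had 13.8 ± 0.823 in control, 29.0 ± 2.91 in SDS10 and 27.2 ± 10.3 in SDS30 (SD, n = 3, 5 and 5). The list's mean level per library was 31.4 ± 3.13 in control, 34.4 ± 1.97 in SDS10 and 33.6 ± 3.36 in SDS30, and control overlapped both. Without control replicate 1, the lowest library at 28.3, 14 were higher and 2 lower and the median was 0.05. All summits had 3.12% higher and 1.48% lower there. With control replicate 3 dropped, 14 were higher, where 1.52% of all summits were.

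In SDS30 against control 6 adhesion members (2.02%) were higher and 1 (0.337%) lower, beside 1.44% and 1.97% of all summits, with a median of 0.12. Against SDS10 4 (1.35%) were higher and 8 (2.69%) lower, both below the 2.01% and 3.11% of all. The first of these counts depended on single libraries: it was 16 without SDS30 replicate 3 or without control replicate 2, 11 without SDS30 replicate 5, and 10 without SDS10 replicate 2 or control replicate 3. It was 13 with DESeq2 and 11 with a replicate block. The strongest adhesion members were in Sema6d (117 ± 23.8 in control, 103 ± 18.2 in SDS10, 93.9 ± 13.9 in SDS30) and Robo2 (82.5 ± 18.9, 94.9 ± 8.93 and 77.4 ± 8.79), with overlap.

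Postsynaptic scaffold and signalling genes held 541 tested members in 35 of 42 genes. In SDS10 16 (2.96%) were higher and 3 (0.555%) lower, beside 1.99% and 1.22% of all summits. In SDS30 there were 12 (2.22%) and 4 (0.739%), beside 1.44% and 1.97%, and in SDS30 against SDS10 9 (1.66%) and 2 (0.370%), both below the 2.01% and 3.11% of all. Trio, a guanine nucleotide exchange factor for small GTPases, had 21.0, 12.2 and 16.05 in the control libraries, 22.1, 29.6, 32.0, 45.7 and 36.6 in SDS10 and 22.7, 43.7, 26.3, 22.2 and 28.3 in SDS30 at its smallest p. All defeat libraries were above control there. Magi2, a scaffold of excitatory synapses, had 24.9 ± 4.23, 43.4 ± 12.9 and 44.6 ± 7.20, and SDS30 was above control without overlap. The strongest members were in Nav2 (128 ± 12.9 in control), Pde10a (118 ± 4.79) and Gphn, the inhibitory synapse scaffold gephyrin (115 ± 16.8). Without SDS30 replicate 1 the count of higher members in SDS30 was 7, where 1.46% of all summits were higher. Without SDS30 replicate 4 the count against SDS10 was 5, where 1.48% of all were.

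Ion channel and receptor genes held 182 tested members in 23 of 59 genes, with 4 higher (2.20%) and 0 lower in SDS10, which is near the 1.99% and 1.22% of all summits, and 6 (3.30%) and 0 in SDS30, beside 1.44% and 1.97%. Kcnj3 gave 2 of the 4, and the sodium channel gene Scn2a 3 of the 6. The first count was 1 without SDS10 replicate 3, 2 without SDS10 replicate 2 and 7 without SDS10 replicate 1. Of all summits 1.65%, 2.78% and 1.91% were higher in these settings. Calcium channel genes held the strongest members, Cacna1a at 91.6 ± 6.11 and Cacna1e at 86.5 ± 17.5 in control, followed by the kainate receptor gene Grik4 at 82.3 ± 17.7, all with overlap between groups.

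Transcription and chromatin regulators held 695 tested members in 49 of 60 genes. In SDS10 26 (3.74%) were higher and 7 (1.01%) lower, beside 1.99% and 1.22% of all summits. In SDS30 there were 23 (3.31%) and 7 (1.01%), beside 1.44% and 1.97%, and between the defeat groups 13 (1.87%) and 10 (1.44%), both below the 2.01% and 3.11% of all. Tcf4 and Mef2c, an activity-dependent factor of neurons, gave 8 each of the 26, and Nr3c1 gave 4. These counts moved with single libraries, and so did the share of all summits higher. In SDS10 42 were higher without control replicate 1 (all 3.12%), 9 without control replicate 2 (all 1.84%) and 16 without SDS10 replicate 1 (all 1.91%). In SDS30 43 were higher without control replicate 1 (all 2.81%) and 13 without control replicate 2 (all 1.48%). The SDS30 count was 12 without control replicate 3 (all 1.12%) or SDS30 replicate 3 (all 1.30%). Against SDS10 the number was 24 without SDS10 replicate 4 (all 2.34%) and 23 without SDS30 replicate 1 (all 2.93%).

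Nr3c1 held 37 deep summits in only 8 regions, and neighbouring summits share fragments, so the 37 are not independent. Of these, 28 had a fold change above 0 in SDS10 and 23 in SDS30 against control, with the same control libraries in both. Of all tested members 49.4% and 57.6% were above 0. At an unadjusted p under 0.05, 4 Nr3c1 summits were higher in each, and 0 and 1 lower. Of all summits 1.99% and 1.44% were higher, and 1.22% and 1.97% lower. The strongest Nr3c1 summit had 104, 98.2 and 105 in the control libraries, 99.3, 109, 106, 77.9 and 91.1 in SDS10 and 75.2, 43.7, 70.5, 60.7 and 97.8 in SDS30. SDS30 was below control without overlap, by -0.60 ± 0.19, and below SDS10 by -0.51 ± 0.16, with adjusted p 1.00 and 0.963 by limma, while SDS10 differed from control by -0.09 ± 0.19. The weak summit with the smallest p in SDS10 was at 9.26 in control, 20.9 in SDS10 and 23.5 in SDS30 on average, with log2 fold changes of 1.28 and 1.37 and adjusted p 1.00 by limma in both.

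Genes with described internal promoters, a list that shares Tcf4, Nr3c1 and others with the lists above, had 25 higher (4.30%) and 2 lower (0.344%) of 581 in SDS10, beside 1.99% and 1.22% of all summits. In SDS30 there were 17 (2.93%) and 6 (1.03%), beside 1.44% and 1.97%. Between the defeat groups there were 10 (1.72%) and 6 (1.03%), both below the 2.01% and 3.11% of all. With loess offsets there were 5 and 7, beside 1.85% and 2.21% of all. Ppargc1a, a coactivator of mitochondrial genes, had 75.5, 37.4 and 49.3 in the control libraries, 97.6, 52.2, 97.0, 112 and 85.4 in SDS10 and 93.2, 89.0, 88.3, 65.9 and 50.7 in SDS30, with overlap. This Ppargc1a summit had no RefSeq start within 1 kb. Without control replicate 2 the count of higher members in SDS10 was 12 (all summits 1.84%), and without SDS10 replicate 3 it was 16 (all 1.65%). In SDS30 it was 28 without control replicate 1 (all 2.81%) and 11 without SDS30 replicate 3 (all 1.30%). Foxp1 and Pde4d held strong members at 106 ± 17.4 and 105 ± 3.98 in control.

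Glial and vascular genes held 89 tested members in 15 of 46 genes, with 0 higher and 1 (1.12%) lower in SDS10 and in SDS30, and 2 (2.25%) higher and 0 lower between the defeat groups. With so few members these are near the shares of all summits, 1.99% and 1.22%, 1.44% and 1.97%, and 2.01% and 3.11%. Without control replicate 1 the higher members were 6 in SDS10 (all summits 3.12%) and 4 in SDS30 (all 2.81%). Between the defeat groups there were 5 without SDS10 replicate 5 (all 2.38%) or SDS30 replicate 1 (all 2.93%). Enpp2, the lysophospholipase autotaxin, had 82.4 ± 22.3, 61.2 ± 13.6 and 79.8 ± 7.93. At its smallest p, Ets1, an endothelial and lymphoid factor, was at 101 ± 14.5, 80.2 ± 13.3 and 74.4 ± 16.7, with overlap. The strongest Ets1 summit, in the same region, was at 109 ± 21.9, 103 ± 15.9 and 106 ± 6.62, also with overlap. The VEGF receptor Flt1 was at 26.4 ± 5.28, 17.8 ± 2.74 and 28.7 ± 5.57. At Flt1 SDS10 was below both other groups without overlap.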

How the data were processed

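H3K4me3 ChIP-seq values of 13 libraries were used; the input library was not analysed here. The submitters' processing notes name mm10 and GRCm38.p5 as builds and, as tools, Bowtie2, DESeq2, MACS2 and Trimmomatic. Settings, the handling of duplicates and the window counted: not given in the sources used here. As deposited, each row holds a normalised signal per summit and library, which the authors scaled by 1 factor per library; 100% of values were whole reads (tolerance 0.001), so reads were recovered. The deposited peak score, of unstated scale, was not used in a test. Each column was used (0 left out).

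limma 3.58.1 (R 4.3.3) was fitted to log2(value + 1) of all 13 libraries with a trend and 1 mean per group, over 152270 summits kept by edgeR's filterByExpr (937 left out), with Benjamini-Hochberg adjustment at 0.05. Fold changes on that scale understate changes of low summits. edgeR 4.0.16 and DESeq2 1.42.0 on the recovered reads were alternatives; edgeR called 0 summits in each comparison. The fit was also run on simulated reads, drawn for each summit on its own, without shared fragments. The outcome is not given here and is not used as support. Gene boundaries and starts came from RefSeq (GRCm38.p6); a start is linked within 1 kb. Reads carry no molecular identifiers, so duplicates of 1 molecule may count more than once. Control values are the mean of 3 libraries.

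The members, the gene lists and the tests were chosen with earlier results of these data known, and no list has a test. Named summits are the 8 strongest, the 8 hosts with most regions, the 5 smallest p-values per comparison and direction (1 per host, gene models left out), the 3 strongest and the smallest p per list, and 3 on each side of the 10 kb limit. Lrrc4c, Lsamp, Pcca, Nr3c1 and other genes named for their hosts or counts were picked after their values were seen. Not every summit picked by this rule is reported here.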

Additional observations from a re-analysis of the deposited data

Results flagged for a closer look

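In 8 of 128 groups of 5 libraries at the named summits (6.25%), 1 library stood apart from the other 4 by Dixon's criterion, which chance alone meets in about 1 of 20 groups. In SDS10 replicate 4 was lowest at Enpp2 (37.3, next 64.2) and at the strongest Ets1 summit (74.5, next 107.3). In SDS30 replicate 1 was lowest at Zfp445 (148.0, next 170.3) and at Grik4 (70.5, next 89.0), and highest at Lrrc4c (41.5, next 26.6). SDS30 replicate 2 was highest at Trio (43.7, next 28.3), replicate 4 at Apbb1ip (78.7, next 64.2) and replicate 3 at Ptprd (30.5, next 21.9), a summit just outside the 10 kb limit. All values are normalised reads. No cause was tested.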

How the results depend on the processing

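The count of called members and of called deep regions was 0 in each comparison under every alternative run, edgeR and DESeq2 included. The 39 fold changes at named summits kept their sign in all 23 settings. These summits were picked for small p-values in the main limma fit of the same data, so a kept sign is no support. Leaving out a library of a group outside the comparison cannot move its limma fold change. At an unadjusted p under 0.05, limma had 355, 331 and 465 members (SDS10 against control, SDS30 against control, SDS30 against SDS10), edgeR 337, 313 and 422, and DESeq2 390, 365 and 490. With members beyond 5 kb these were 538, 501 and 735, since more summits were counted, and beyond 20 kb 269 for SDS30 against SDS10. Leaving out 1 library gave 254 to 518, 223 to 562 and 307 to 729; the highest and lowest came from control replicates 1 and 3, control replicate 1 and SDS30 replicate 2, and SDS30 replicates 1 and 2, and 549 without SDS30 replicate 5 in the second. Leaving out 1 library, the median log2 fold change ranged from -0.02 to 0.01, 0.03 to 0.06 and 0.02 to 0.06, and loess offsets gave 0.02 and 0.00 for the SDS30 comparisons. The share of reads, leaving out 1 library, ranged from 5.20 to 5.23% in control, 5.18 to 5.25% in SDS10 and 5.32 to 5.42% in SDS30. By construction it moved with the limit: beyond 5 kb it was 7.94, 7.92 and 8.17%, beyond 20 kb 3.31, 3.34 and 3.42%, and with boundaries of coding genes only 7.51, 7.51 and 7.72%. Taken among the reads on summits beyond 2 kb, it was 24.7, 24.8 and 24.7%, similar in all groups. A start distance of 500 or 2000 bp, chosen after seeing the data, linked 13.6% or 21.8% of regions in place of 16.6%.

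With the replicate number as a replicate block, 434, 345 and 383 members had an unadjusted p under 0.05 and 0 were called. The numbers do not pair the libraries: over 11 same-numbered pairs r ran from -0.29 to 0.37, with 3 over 0.1. Depth limits single weak summits, where 10 to 30 normalised reads, and at some fewer than 10, stand behind a value. At the Kcnj3 summit described above, control replicates 2 and 3 had 6.08 and 5.73.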
